A study of Mus musculus with 11 samples.

Results

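Osteoclast and acid secretion genes were measured in fibrocartilage from the mandibular condyle, part of the jaw joint, of female mice with and without estrogen receptor alpha. The list holds 35 genes, taken by symbol from a count table of 23420 genes: osteoclast products and fusion genes (10), receptor, signalling and podosome genes (6), acid secretion genes other than the pump's shared parts (7), and subunits of the vacuolar proton pump (12). All 35 symbols were in the table, and 34 had enough counts to be tested among 14531 genes. The members were picked by known role, with earlier results of these data already known.

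All animals were C57BL/6 females, ovariectomized at 6 weeks and sampled at 7 weeks, so every group lacked ovarian hormones. The groups were ERalphaKO with estradiol (KO E2, 3 samples), ERalphaKO with placebo (KO Plb, 3), wild type with estradiol (WT E2, 3) and wild type with placebo (WT Plb, 2). Estradiol was given as 0.01 mg in a form made to release over 60 days, for 1 week. The labels do not describe the knockout allele, whether it acts in all cells, or whether a sample pools animals, so the p-values reflect differences among samples that could be technical in part. RNA of all cells of the dissected tissue was read together after poly-A selection, so that fewer osteoclasts and less RNA per osteoclast cannot be told apart.

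An osteoclast is a large cell with several nuclei that dissolves mineralized tissue, and it forms by fusion of precursors of the monocyte lineage under the cytokines M-CSF (Csf1) and RANKL (Tnfsf11). It seals off a patch of surface and acidifies it. Carbonic anhydrase supplies protons, the vacuolar ATPase pumps them out, chloride transport balances the charge and an anion exchanger disposes of the bicarbonate. Cathepsin K digests the freed collagen. The pump is built from a cytosolic V1 part that splits ATP and a membrane V0 part that carries protons. Most of its subunits also serve lysosomes and endosomes of every cell, whereas the a3 (Tcirg1) and d2 (Atp6v0d2) forms are enriched in osteoclasts. Estrogen is known in bone at large as a restraint on osteoclasts.

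The libraries held 15.7 to 25.5 M counts. Levels are given as CPM, counts per M after TMM scaling, and are not divided by gene length, so they compare samples and not genes. Esr1, the gene of the receptor, had 3.41, 2.55 and 3.75 CPM in KO E2, 4.86, 3.99 and 2.68 CPM in KO Plb, 7.89, 6.76 and 6.43 CPM in WT E2 and 13.4 and 6.6 CPM in WT Plb libraries, and the KO libraries were below all WT libraries, although the counts do not show which part is deleted. WT Plb sample 2 stood apart from the others, with 16% of its counts in the ribosomal precursor Rn45s against 1.83% to 3.13% in the other libraries. Its skeletal muscle markers also summed to 965 CPM, against 9.2 to 577 CPM in the other libraries. For the comparisons that use WT Plb libraries, medians of the members and counts above or below 0 are therefore also given without WT Plb sample 2. The counts over the 4 groups, and the interaction counts at an unadjusted p under 0.05, are given only with both WT Plb samples. All 10 fibrocartilage markers were measured, with summed levels of 8707 to 25814 CPM per library with none at 0. All 10 osteoclast product and fusion genes were also detected in every library.

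Across the 4 groups, most members were highest in wild type tissue with estradiol. The group mean was highest in WT E2 for 28 of the 34 tested members, where 28.7% of all tested genes had that order. The single highest library was a WT E2 library for 29 members, against 30.4% of all tested genes. For 13 members each WT E2 library lay above each of the 8 other libraries, against 4.67% of all tested genes. These 13 were Acp5, Ctsk, Oscar, Ocstamp, Dcstamp, Atp6v0d2, Tnfrsf11a, Tcirg1, Atp6v1b2, Atp6v1d, Atp6v1h, Atp6ap1 and Atp6ap2.

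**Figure D1:**
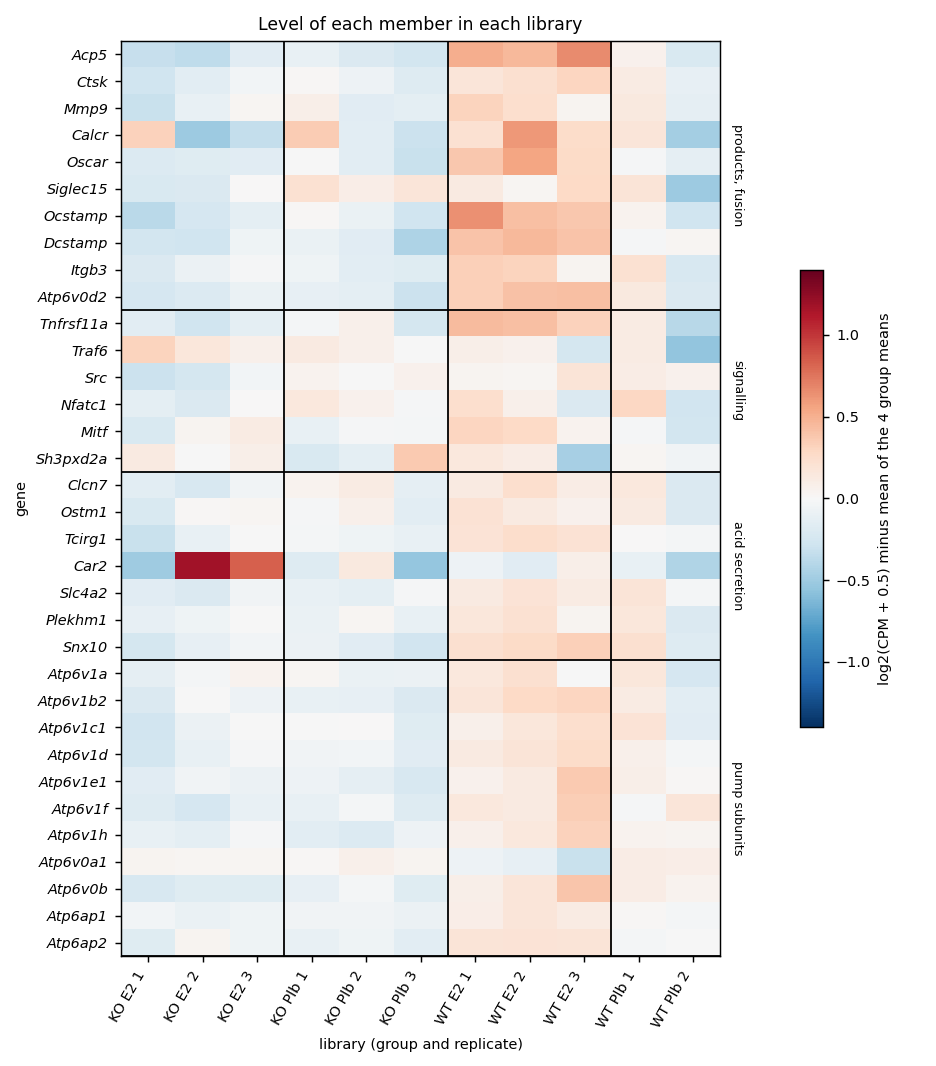
Level of the 34 tested members (rows, by role) in the 11 libraries (columns, by group), as log2(CPM + 0.5) minus the mean of the 4 group means; red is above and blue below that mean. The 3 WT E2 columns are red for most rows, and Car2 stands out in KO E2 samples 2 and 3.

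Under estradiol, many of these genes had lower levels in ERalphaKO than in wild type tissue. Of 34 tested members 17 were lower in KO E2 than in WT E2 tissue and 0 were higher, at an adjusted p under 0.05 in edgeR's quasi-likelihood test over all genes, where 4.2% of all tested genes were called lower and 7.27% higher. The called members were 6 of 10 product and fusion genes, 2 of 6 receptor and signalling genes, 3 of 7 acid secretion genes and 6 of 11 tested pump subunits. At an unadjusted p under 0.05, 23 members were lower and 1 was higher (Atp6v0a1), against 12% and 14.9% of all tested genes. The median log2 difference of the members was -0.30, against -0.0010 for all tested genes, and by role it was -0.55 for products and fusion, -0.19 for receptor and signalling, -0.28 for acid secretion and -0.27 for pump subunits. Values were below 0 for 30 members and above 0 for 4, while 49.8% of all tested genes were above 0. KO E2 libraries lay below WT E2 libraries without overlap for 26 members and above them for 1, against 16.9% and 17.7% of all tested genes. The number called lower was 8 without WT E2 sample 2, 9 without WT E2 sample 3, 8 without KO E2 sample 1 and 9 without KO E2 sample 2. The authors' deposited table also lists 17 members lower and 0 higher, with Mmp9, Itgb3 and Clcn7 in place of Src, Atp6v1h and Atp6ap2.

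Among the products, Acp5 encodes the tartrate-resistant acid phosphatase by which osteoclasts are stained. It had 2951, 2879 and 3312 CPM in KO E2, 3420.0, 3193 and 3095 CPM in KO Plb, 5234, 5031 and 5850.3 CPM in WT E2 and 3844 and 3187 CPM in WT Plb libraries. The KO E2 and WT E2 values did not overlap, and Acp5 fell to 0.567 of the WT E2 level (log2 difference -0.82, SE 0.10, adjusted p = 0.000491). Ctsk, the collagen-digesting cathepsin K, had 2196, 2391 and 2594 CPM in KO E2, 2692, 2540.0 and 2343 CPM in KO Plb, 2998, 3112 and 3264 CPM in WT E2 and 2879 and 2450.0 CPM in WT Plb libraries. It was lower in each KO E2 library than in each WT E2 library (log2 difference -0.38, SE 0.10, adjusted p = 0.0272), a call lost without WT E2 sample 2 or 3, without KO E2 sample 1 or 2 and in the fit of only the groups compared, with an adjusted p in edgeR of up to 0.0838.

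Fusion of precursors needs the membrane proteins DC-STAMP and OC-STAMP. Ocstamp had 33.2, 36.6 and 39.2 CPM in KO E2, 43.5, 40.4 and 35.5 CPM in KO Plb, 67.2, 57.7 and 55.9 CPM in WT E2 and 44.7 and 35.5 CPM in WT Plb libraries. Its WT E2 libraries stood above all 8 others, and the KO E2 to WT E2 log2 difference of -0.73 (SE 0.11, adjusted p = 0.00191) was next in size to that of Acp5. Dcstamp had 31.1, 30.7 and 35.6 CPM in KO E2, 35, 33.4 and 27.5 CPM in KO Plb, 49.2, 51.4 and 49.4 CPM in WT E2 and 36.7 and 38 CPM in WT Plb libraries. It fell with a log2 difference of -0.62 (SE 0.10, adjusted p = 0.00195). Atp6v0d2, the d2 pump subunit that is also needed for fusion in mice, had 169, 174 and 187 CPM in KO E2, 184, 181 and 162 CPM in KO Plb, 250.2, 264 and 267 CPM in WT E2 and 218 and 173 CPM in WT Plb libraries. It fell as well (log2 difference -0.56, SE 0.09, adjusted p = 0.00304), again with no overlap between KO E2 and WT E2 libraries.

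Oscar, a costimulatory receptor that binds collagen, had 35.1, 35.6 and 35.8 CPM in KO E2, 39.9, 36.1 and 32 CPM in KO Plb, 52, 58.7 and 48.1 CPM in WT E2 and 39.5 and 36.5 CPM in WT Plb libraries, and it fell in KO E2 against WT E2 tissue (log2 difference -0.58, SE 0.10, adjusted p = 0.00312). Mmp9, gelatinase B, had 2610.1, 3030.2 and 3304 CPM in KO E2, 3432, 2899.6 and 2951 CPM in KO Plb, 4038, 3825 and 3339 CPM in WT E2 and 3564 and 2977 CPM in WT Plb libraries. Its KO E2 libraries lay below the WT E2 libraries, with a gap between 3304 and 3339 CPM, and the difference did not pass (log2 difference -0.32, SE 0.12, adjusted p = 0.105). The authors' deposited table gives Mmp9 a log2 fold change of -0.32 at an adjusted p of 0.0368 for KO E2 over WT E2. Calcr, the calcitonin receptor of mature osteoclasts, was scarce, at 5.58, 2.91 and 3.35 CPM in KO E2, 5.71, 3.89 and 3.44 CPM in KO Plb, 5.13, 6.9 and 5.32 CPM in WT E2 and 4.95 and 2.99 CPM in WT Plb libraries, which is 44 to 150 counts per library. Its KO E2 and WT E2 libraries overlapped, with a log2 difference of -0.55 (95% interval -1.17 to 0.07), while each WT E2 library was above both WT Plb libraries. Of the other products, Itgb3 (the beta3 integrin chain of the sealing zone) stood at -0.33 (95% interval -0.58 to -0.08) and Siglec15 (a receptor of the osteoclast lineage that binds sialic acid) at -0.29 (95% interval -0.65 to 0.06), and neither passed.

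**Figure D2:**
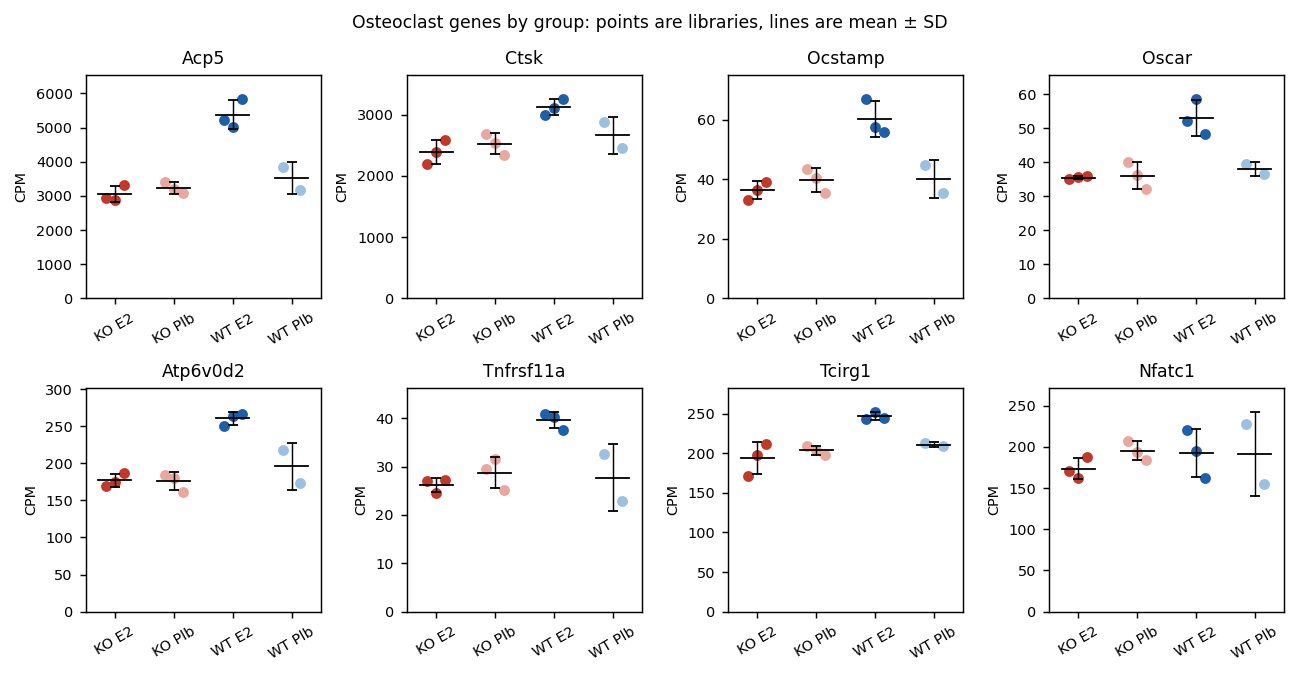
CPM (y axis) of 8 members in the 4 groups (x axis); each point is a library, the line is the group mean and the bar its SD. The 3 WT E2 points lie above the rest for every gene shown but Nfatc1.

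The products were also set against each other as a ratio to Ctsk within each library, a measure chosen after the values were seen. The ratio of Acp5 to Ctsk CPM was 1.34, 1.2 and 1.28 in KO E2, 1.27, 1.26 and 1.32 in KO Plb, 1.75, 1.62 and 1.79 in WT E2 and 1.34 and 1.3 in WT Plb libraries. The 3 WT E2 values lay above the 8 others, which spanned 1.2 to 1.34. An exact two-sided permutation test of the KO E2 and WT E2 ratios gave p = 0.1, the smallest that 3 against 3 samples allow, and 0.225 after Benjamini-Hochberg adjustment over the 9 ratios to Ctsk. The KO E2 and WT E2 libraries did not overlap for 4 of these 9 ratios (Acp5, Ocstamp, Dcstamp and Atp6v0d2, all lower in KO E2), and they overlapped for the other 5. No ratio passed after adjustment, and none could have, because p in this permutation test cannot fall below 0.1. The test therefore cannot decide whether the products changed unequally. The ratio of Mmp9 to Ctsk was 1.19, 1.27 and 1.27 in KO E2 and 1.35, 1.23 and 1.02 in WT E2 libraries.

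RANK, the receptor through which RANKL drives the lineage, is encoded by Tnfrsf11a. It had 27, 24.6 and 27.3 CPM in KO E2, 29.6, 31.5 and 25.2 CPM in KO Plb, 40.9, 40.2 and 37.7 CPM in WT E2 and 32.6 and 22.8 CPM in WT Plb libraries, and the fall in KO E2 passed (log2 difference -0.59, SE 0.13, adjusted p = 0.0108). Nfatc1, the transcription factor switched on downstream of RANK, had 170.2, 162 and 187 CPM in KO E2, 207, 194 and 185 CPM in KO Plb, 219.9, 195 and 162 CPM in WT E2 and 227 and 155 CPM in WT Plb libraries. Its groups overlapped in all 4 pairwise comparisons, with a KO E2 to WT E2 log2 difference of -0.15 (95% interval -0.46 to 0.15). Src, a kinase of the ruffled border, had 51.8, 53.7 and 62.1 CPM in KO E2, 66.3, 63.9 and 66.5 CPM in KO Plb, 65.6, 65.4 and 72.3 CPM in WT E2 and 69 and 66.5 CPM in WT Plb libraries. It passed narrowly (log2 difference -0.28, SE 0.08, adjusted p = 0.047) and lost its call in 10 of 17 alternatives. Traf6 (the adaptor of RANK), Mitf (a transcription factor of the lineage) and Sh3pxd2a (the podosome scaffold Tks5) stood at log2 differences of 0.21 (95% interval -0.11 to 0.54), -0.24 (95% interval -0.49 to 0.02) and 0.11 (95% interval -0.27 to 0.49), and none of these passed.

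In the acid secretion group, Tcirg1 encodes the a3 subunit, whose loss blocks acid release in osteopetrotic mice. It had 171, 198 and 212 CPM in KO E2, 209, 204 and 198 CPM in KO Plb, 243, 252 and 245 CPM in WT E2 and 213 and 209 CPM in WT Plb libraries. KO E2 and WT E2 libraries did not overlap and the fall passed (log2 difference -0.35, SE 0.08, adjusted p = 0.018), a call lost without WT E2 sample 2, KO E2 sample 1 or KO E2 sample 2 (adjusted p of up to 0.0592 in edgeR). Snx10, a sorting nexin needed for bone resorption, had 141, 154 and 163 CPM in KO E2, 158, 149 and 138 CPM in KO Plb, 194, 200.1 and 211 CPM in WT E2 and 195 and 148 CPM in WT Plb libraries (log2 difference -0.40, SE 0.10, adjusted p = 0.0271). Slc4a2, the anion exchanger that exports bicarbonate, had 169.6, 164 and 182 CPM in KO E2, 175, 172 and 187 CPM in KO Plb, 205, 215 and 204 CPM in WT E2 and 213 and 186 CPM in WT Plb libraries (log2 difference -0.28, SE 0.08, adjusted p = 0.0411). Slc4a2 lost its call in 10 of 17 alternatives, and Snx10 lost its call without any single WT E2 sample and without KO E2 sample 1 or 2. The chloride transporter Clcn7 stood at -0.30 (95% interval -0.51 to -0.08), its partner protein Ostm1 at -0.19 (95% interval -0.41 to 0.04) and the lysosome-positioning adaptor Plekhm1 at -0.20 (95% interval -0.40 to 0.01). These last genes did not pass, though each had lower values in all KO E2 than in all WT E2 libraries.

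Car2, the cytosolic carbonic anhydrase, differed among the libraries of 1 group. It had 28.3, 91.6 and 72.2 CPM in KO E2, 35.3, 44.1 and 27.6 CPM in KO Plb, 38.3, 35.8 and 42.7 CPM in WT E2 and 37.5 and 29.9 CPM in WT Plb libraries. KO E2 samples 2 and 3 were far above the rest and KO E2 sample 1 was not. Neither the KO E2 to WT E2 log2 difference of 0.72 (95% interval -0.14 to 1.57) nor the KO E2 to KO Plb difference of 0.84 (95% interval -0.01 to 1.70) passed. Without KO E2 sample 1 Car2 was called higher in both comparisons. Red cell precursors also make Car2, and the summed CPM of the 9 erythroid markers was 17.8, 208 and 133 in KO E2, 4.44, 62.4 and 17.4 in KO Plb, 23.2, 23 and 24 in WT E2 and 5.49 and 14.4 in WT Plb libraries. Of the markers tested, 1 of 5 was called higher in KO E2 against WT E2 (Klf1), as were 7.27% of all tested genes. The 4 globin genes of the list, Hba-a1, Hba-a2, Hbb-b1 and Hbb-b2, had 0 counts in all libraries. Whether reads that match more than 1 gene were left out was not tested, so the globin levels are unknown. The part of erythroid cells in the Car2 values was not tested.

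The pump subunits had a median log2 difference of -0.27 next to -0.55 for the osteoclast products, a contrast that was not tested. Atp6v0b, the c'' ring subunit, had 144, 150.0 and 150.5 CPM in KO E2, 157, 165 and 151 CPM in KO Plb, 179, 189 and 222 CPM in WT E2 and 181 and 175 CPM in WT Plb libraries, and it fell in KO E2 against WT E2 tissue (log2 difference -0.41, SE 0.09, adjusted p = 0.00981). The V1 or accessory subunits that also fell were Atp6v1f (-0.38), Atp6v1b2 (-0.35), Atp6v1d (-0.32), Atp6v1h (-0.27) and Atp6ap2 (-0.24), each given as a log2 difference with adjusted p between 0.0142 and 0.0479 in edgeR. Atp6v1b2, a subunit of the ATP-splitting head, had 281, 322 and 308 CPM in KO E2, 300.4, 299 and 282 CPM in KO Plb, 364, 394 and 399 CPM in WT E2 and 352 and 292 CPM in WT Plb libraries. Atp6v1f, of the central stalk, had 55, 53.1 and 58 CPM in KO E2, 57.9, 61.2 and 55 CPM in KO Plb, 69.2, 67.9 and 79.1 CPM in WT E2 and 61.5 and 70 CPM in WT Plb libraries.

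The stalk subunit Atp6v1d had 78.4, 87.2 and 92.6 CPM in KO E2, 91, 91.2 and 83.9 CPM in KO Plb, 102, 107 and 112 CPM in WT E2 and 98.3 and 92.4 CPM in WT Plb libraries. For Atp6v1h, which regulates the V1 part, the values were 75.8, 74.3 and 80.7 CPM in KO E2, 73.3, 71.2 and 77.5 CPM in KO Plb, 85.7, 90.2 and 102 CPM in WT E2 and 84.3 and 83.8 CPM in WT Plb libraries. Atp6ap2, the prorenin receptor that is an accessory protein of the pump, had 144, 167 and 155 CPM in KO E2, 151, 156 and 147 CPM in KO Plb, 184, 186 and 184 CPM in WT E2 and 159 and 162 CPM in WT Plb libraries. Its call was kept in 4 of 17 alternatives, the fewest of the 17 genes, and that of Atp6v1h in 8. Atp6v1b2 lost its call without WT E2 sample 2 or 3 or KO E2 sample 1 or 3, Atp6v1d without WT E2 sample 2 or 3 or KO E2 sample 1 or 2, and Atp6v1f without KO E2 sample 2. Atp6v1a (catalytic A subunit), Atp6v1c1, Atp6v1e1 and Atp6ap1 stood at -0.16, -0.27, -0.29 and -0.19 on the log2 scale and did not pass.

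Atp6v0a1 differed in the other direction. It encodes the a1 form, which takes the place of a3 in the pumps of many other cells, and it had 47, 46.9 and 46.7 CPM in KO E2, 46.5, 48.2 and 47.3 CPM in KO Plb, 43.6, 42.3 and 36.8 CPM in WT E2 and 49.3 and 49 CPM in WT Plb libraries. The WT E2 libraries lay below all 8 others, with log2 differences of 0.20 (95% interval 0.03 to 0.36) for KO E2 over WT E2 and -0.26 (95% interval -0.45 to -0.08) for WT E2 over WT Plb, neither of which passed (adjusted p = 0.122 and 0.159 in edgeR). Atp6v0c, the c subunit of the proton ring, had 0 to 3 counts per library and was not tested. It has the annotated pseudogenes Atp6v0c-ps1 and Atp6v0c-ps2. Whether reads shared with such copies were left out was not tested, so its level is unknown.

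Promoter windows were read to see which sequence features the acid machinery shares. RefSeq (build GRCm38.p6) gave windows of 300 bases, from 250 before to 50 after a transcription start, for 23 of the 35 members (36 windows). Among the 10 product and fusion genes 4 had a window. Windows were searched on both strands for the E-box CACGTG and its extension TCACGTG, the core of the element that lysosomal genes share and that factors of the MiT family, Mitf among them, recognize. Every TCACGTG contains a CACGTG, so the 2 searches overlap. TCACGTG was in 3 of the 36 member windows, 1 each of Clcn7, Atp6v0b and Atp6v1a, and in 3.77% of all 32851 windows. CACGTG was in the same 3 windows, and in 7.15% of all windows. The AP-1 site TGANTCA was in 2 of the 36 member windows (Atp6v0a1 and Snx10) and in 7.81% of all windows. The palindromic estrogen response element (GGTCA and TGACC, 3 bases apart) was in 0 member windows and 0.07% of all windows. A match is only a string of letters, and a missing one says nothing about binding elsewhere.

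The 3 windows with an E-box are shown with that of Tnfrsf11a, the called receptor, which has none. They lie at chr17:25133141-25133440 (plus strand) for the first of 2 Clcn7 windows, chr4:117887280-117887579 (minus strand) for Atp6v0b, chr16:44139210-44139509 (minus strand) for Atp6v1a and chr1:105780473-105780772 (plus strand) for Tnfrsf11a, all in GRCm38.p6, and are written 5′ to 3′ on the strand of the gene with CACGTG in capitals. The first base of the hexamer is at -15 and 8 from the start site in Clcn7, at -36 and -18 in Atp6v0b and at -131 in Atp6v1a. Of these 3 genes only Atp6v0b was called in KO E2 against WT E2 tissue.
Clcn7: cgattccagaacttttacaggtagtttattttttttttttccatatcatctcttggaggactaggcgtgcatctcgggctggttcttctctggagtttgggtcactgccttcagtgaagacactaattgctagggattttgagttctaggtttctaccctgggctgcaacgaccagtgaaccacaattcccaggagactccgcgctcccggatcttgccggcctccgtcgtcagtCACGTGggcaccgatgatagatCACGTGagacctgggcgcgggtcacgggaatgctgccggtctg
Atp6v0b: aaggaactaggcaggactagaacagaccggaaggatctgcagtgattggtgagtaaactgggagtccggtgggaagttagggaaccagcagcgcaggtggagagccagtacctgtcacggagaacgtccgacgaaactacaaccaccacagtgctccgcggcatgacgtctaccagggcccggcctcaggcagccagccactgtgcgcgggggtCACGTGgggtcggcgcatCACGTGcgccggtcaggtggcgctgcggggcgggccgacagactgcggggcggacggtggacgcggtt
Atp6v1a: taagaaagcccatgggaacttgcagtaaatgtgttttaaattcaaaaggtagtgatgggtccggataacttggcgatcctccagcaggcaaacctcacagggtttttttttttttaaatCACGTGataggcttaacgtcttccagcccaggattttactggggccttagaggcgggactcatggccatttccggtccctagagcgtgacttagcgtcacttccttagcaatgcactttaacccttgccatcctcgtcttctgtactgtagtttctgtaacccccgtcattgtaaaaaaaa
Tnfrsf11a: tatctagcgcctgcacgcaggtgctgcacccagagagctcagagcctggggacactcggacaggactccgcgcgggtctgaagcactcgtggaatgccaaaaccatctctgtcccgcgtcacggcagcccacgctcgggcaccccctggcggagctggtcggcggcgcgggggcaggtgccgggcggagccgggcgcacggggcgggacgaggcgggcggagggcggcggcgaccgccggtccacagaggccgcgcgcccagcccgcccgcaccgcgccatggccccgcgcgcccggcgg

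The members that were not called spanned these levels. Itgb3 ranged over 213 to 244 CPM in KO E2, 219 to 237 in KO Plb, 253 to 309.5 in WT E2 and 209.9 to 285 in WT Plb libraries, and Siglec15 over 9.1 to 10.7 CPM in KO E2, 11.4 to 12.4 in KO Plb, 10.9 to 13.1 in WT E2 and 7.35 to 12.1 in WT Plb. Traf6 ranged over 36.9 to 43.5 CPM in KO E2, 34.9 to 38.3 in KO Plb, 29.5 to 37.1 in WT E2 and 23.7 to 38 in WT Plb, Mitf over 16.3 to 20.7 CPM in KO E2, 17.6 to 18.8 in KO Plb, 19.8 to 23.6 in WT E2 and 15.9 to 18.8 in WT Plb and Sh3pxd2a over 737 to 810.3 CPM in KO E2, 642 to 956 in KO Plb, 539 to 825 in WT E2 and 719 to 757 in WT Plb. In KO E2 and WT E2 these last 3 genes overlapped. Among acid secretion genes Clcn7 ranged over 89.8 to 101 CPM in KO E2, 96.6 to 114 in KO Plb, 113 to 124 in WT E2 and 91.6 to 117 in WT Plb, Ostm1 over 53.7 to 63.1 CPM in KO E2, 56.1 to 65 in KO Plb, 64.6 to 71.7 in WT E2 and 53.8 to 67.7 in WT Plb and Plekhm1 over 73 to 79 CPM in KO E2, 73.9 to 80.5 in KO Plb, 81.2 to 92.2 in WT E2 and 69 to 88.6 in WT Plb. Among pump subunits Atp6v1a ranged over 226 to 257 CPM in KO E2, 232 to 251 in KO Plb, 247 to 289 in WT E2 and 210.1 to 275 in WT Plb, and Atp6v1c1 over 82 to 98.4 CPM in KO E2, 87.8 to 99.4 in KO Plb, 104 to 117 in WT E2 and 88.7 to 113 in WT Plb. Atp6v1e1, of the peripheral stalk, ranged over 126 to 136 CPM in KO E2, 121 to 134 in KO Plb, 146 to 182 in WT E2 and 142 to 149 in WT Plb, and the accessory Atp6ap1 over 343 to 356 CPM in KO E2, 345 to 353 in KO Plb, 391 to 411 in WT E2 and 357 to 370.0 in WT Plb. Atp6ap1 was the one uncalled member with all WT E2 libraries above all 8 others.

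**Figure D3:**
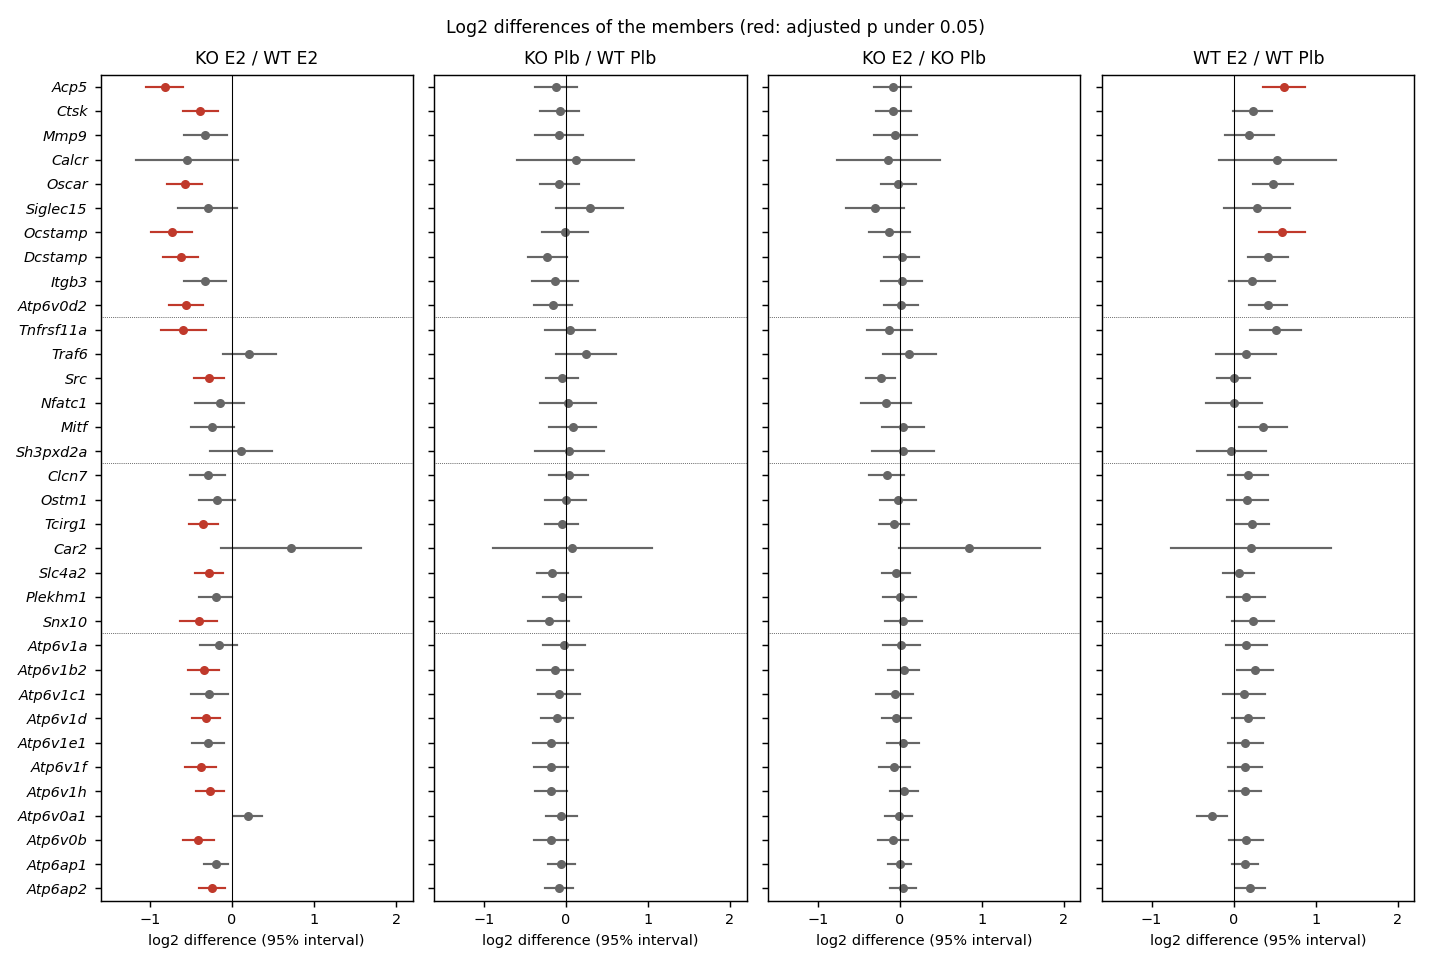
Log2 difference with its 95% interval (x axis) for each of the 34 tested members (y axis, by role) in 4 comparisons, with red marking an adjusted p under 0.05. Red points are 17 in KO E2 over WT E2, 0 in KO Plb over WT Plb, 0 in KO E2 over KO Plb and 2 in WT E2 over WT Plb.

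The effect of estradiol in wild type tissue shares the 3 WT E2 libraries with the comparison above, so the 2 sets of values are not independent. Of the 34 members 2 rose and 0 fell in edgeR, where 0.654% of all tested genes were called higher and 0.895% lower. Acp5 rose 1.53-fold over the WT Plb level (log2 difference 0.61, SE 0.12, adjusted p = 0.0224) and Ocstamp 1.5-fold (log2 difference 0.59, SE 0.13, adjusted p = 0.0466). Oscar (log2 0.48, adjusted p = 0.054), Atp6v0d2 (0.41, adjusted p = 0.083), Dcstamp (0.42, adjusted p = 0.0884) and Tnfrsf11a (0.51, adjusted p = 0.108) did not pass in edgeR.

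Without WT Plb sample 2 neither gene was called, with log2 differences of 0.48 (adjusted p = 0.124) for Acp5 and 0.43 (adjusted p = 0.196) for Ocstamp. Without WT E2 sample 1 the count was also 0, and without WT Plb sample 1 it was 4. A count of 1 was left without WT E2 sample 2, any single KO E2 sample, or KO Plb sample 1 or 2, and it was 4 without KO Plb sample 3. At an unadjusted p under 0.05, 10 members were higher and 1 was lower, against 6.15% and 7.87% of all tested genes. The median log2 difference of the members was 0.18, against 0.0023 for all tested genes, and 32 of 34 had a value above 0, as did 50.6% of all tested genes. WT E2 libraries lay above both WT Plb libraries without overlap for 15 members, against 13.2% of all tested genes.

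These values depended on which WT Plb library was used. Without WT Plb sample 2 the median was 0.11, against 0.0093 for all tested genes, and 24 members were above 0, against 51.3% of all tested genes. The 3 WT E2 libraries were then above the remaining WT Plb library for 16 members and below it for 3, against 30.2% and 30.5% of all tested genes. Without WT Plb sample 1 the median was 0.34, with 32 members above 0, against 50.1% of all tested genes. In such fits the lone WT Plb sample is assumed to vary like the other groups. The authors' deposited table lists 4 members higher and 0 lower at an adjusted p under 0.05 in this comparison, Acp5, Ocstamp, Dcstamp and Oscar.

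In ERalphaKO tissue no member was called for estradiol. The count was 0 of 34 in edgeR and in DESeq2, with 0 higher and 1 lower (Src) at an unadjusted p under 0.05, against 9.66% and 6.8% of all tested genes. Of all tested genes edgeR called 2.73%, 2.36% higher and 0.365% lower. With the replicate number as a block the count of members stayed at 0, while that of all genes went to 629 against 396 without it. The median log2 difference of the members was -0.02. Acp5 stood at -0.09 (95% interval -0.31 to 0.14), Ctsk at -0.08 (95% interval -0.29 to 0.14), Ocstamp at -0.13 (95% interval -0.38 to 0.12) and Tnfrsf11a at -0.13 (95% interval -0.40 to 0.15) on the log2 scale.

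Whether the estradiol effect differed between the genotypes was tested as an interaction (WT effect minus KO effect). It was called for 0 of 34 members in edgeR, where 0.31% of all tested genes were called with a higher effect in WT and 0.84% with a lower one, and for 2 in DESeq2. The difference was above 0 for 31 members and for 49.8% of all tested genes. At an unadjusted p under 0.05, 9 members had a higher effect in WT and 1 a lower one, against 4.38% and 7.2% of all tested genes. Acp5 came closest, at a log2 difference of 0.70 (SE 0.16, adjusted p = 0.0537), and Ocstamp followed at a log2 difference of 0.72 (SE 0.17, adjusted p = 0.0699). With the replicate number as a block Acp5 passed (adjusted p = 0.0424). Without WT Plb sample 1 the log2 differences of Acp5, Ocstamp and Tnfrsf11a were 0.84, 0.90 and 0.93. Without WT Plb sample 2, 26 members were above 0, against 50.1% of all tested genes. Acp5 then stood at 0.57 (95% interval 0.20 to 0.94). The median over the members was 0.21 with both WT Plb samples, 0.14 without sample 2 and 0.37 without sample 1.

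Under placebo, ERalphaKO and wild type tissue showed no called difference in these genes. In edgeR 0 of 34 members were called, as in DESeq2, and 0 had an unadjusted p under 0.05, while 0.00688% of all tested genes (1 gene) were called. Acp5 stood at -0.12 (95% interval -0.37 to 0.13), Ctsk at -0.08 (95% interval -0.32 to 0.16), Tnfrsf11a at 0.05 (95% interval -0.26 to 0.36) and Tcirg1 at -0.05 (95% interval -0.25 to 0.15) on the log2 scale. With 2 WT Plb samples that differ from each other, smaller differences than these intervals allow were not detectable. KO Plb libraries lay below both WT Plb libraries for 10 members and above them for 0, against 13.8% and 13.2% of all tested genes, and 8 of those members were pump subunits.

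The direction under placebo also turned on the WT Plb library used. Without WT Plb sample 2, 33 of 34 members were below 0, where 50.8% of all tested genes were above 0. The median log2 difference of the members was -0.18, against 0.0038 for all tested genes and -0.07 for the members with both samples. At an unadjusted p under 0.05, 5 members were then lower and 0 higher, against 2.03% and 2.85% of all tested genes. KO Plb libraries were below WT Plb sample 1 for 28 members, against 27.4% of all tested genes. Acp5 stood at -0.25 (95% interval -0.54 to 0.05), Ctsk at -0.19 (95% interval -0.48 to 0.10), Tnfrsf11a at -0.18 (95% interval -0.47 to 0.11) and Tcirg1 at -0.06 (95% interval -0.32 to 0.20) in that fit. Without WT Plb sample 1 the median was 0.03, against 0.0048 for all tested genes. In that fit 13 members were below 0, where 50.5% of all tested genes were above 0.

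Cytokines and other genes of the osteoclast pathway were followed as a separate list of 21 genes, of which 3 were higher and 2 lower in KO E2 than in WT E2, where 7.27% of all tested genes were called higher and 4.2% lower. Csf1, the survival and growth factor M-CSF, had 87, 95 and 124 CPM in KO E2, 105, 116 and 119 CPM in KO Plb, 171, 186 and 192 CPM in WT E2 and 133 and 121 CPM in WT Plb libraries. It fell in KO E2 (log2 difference -0.84, SE 0.12, adjusted p = 0.000856), and for estradiol in WT tissue it had a log2 difference of 0.53 (95% interval 0.24 to 0.81) that did not pass (adjusted p = 0.075 in edgeR). Csf1r, its receptor on macrophages and osteoclast precursors, had 289, 288 and 314 CPM in KO E2, 313, 315 and 291 CPM in KO Plb, 424, 411 and 403 CPM in WT E2 and 369 and 284 CPM in WT Plb libraries, and it fell too (log2 difference -0.47, SE 0.10, adjusted p = 0.00814).

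RANKL and its decoy osteoprotegerin were not called in any of the 5 comparisons. Tnfsf11 (RANKL) had 55, 60.9 and 53.8 CPM in KO E2, 41.4, 46.4 and 74 CPM in KO Plb, 54.8, 45.4 and 54.1 CPM in WT E2 and 37.2 and 53 CPM in WT Plb libraries. Tnfrsf11b (osteoprotegerin) had 74, 47.7 and 61.8 CPM in KO E2, 67.4, 62.9 and 66.1 CPM in KO Plb, 66.3, 57.4 and 74.3 CPM in WT E2 and 84.7 and 63.5 CPM in WT Plb libraries. The KO E2 to WT E2 log2 differences were 0.14 (95% interval -0.31 to 0.59) and -0.11 (95% interval -0.45 to 0.23), and those of WT E2 over WT Plb were 0.19 (95% interval -0.32 to 0.70) and -0.17 (95% interval -0.55 to 0.21). The 3 genes higher in KO E2 were Syk (log2 1.31, adjusted p = 0.00162), Irf8 (1.46, adjusted p = 0.00248) and Plcg2 (0.90, adjusted p = 0.0022) by edgeR, and all 3 also serve other blood cells. Irf8, a repressor of the osteoclast fate, and the kinase Syk also rose with estradiol in KO tissue (adjusted p = 0.0351 and 0.0376 in edgeR).

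Further pump subunits and osteoclast genes outside the members are set beside the same 4.2% of all tested genes called lower. Of 11 further subunits 7 were tested and 2 fell in KO E2 against WT E2, Atp6v1g1 (log2 -0.33) and Atp6v0e (-0.38). Atp6v0d1, the widespread counterpart of the d2 subunit, had 91.1, 90.5 and 90.7 CPM in KO E2, 86.2, 94.7 and 89 CPM in KO Plb, 96.5, 97.8 and 108 CPM in WT E2 and 104 and 105 CPM in WT Plb libraries. Its log2 difference of -0.15 (95% interval -0.30 to 0.00) did not pass, next to -0.56 for Atp6v0d2. Of 10 attachment and other osteoclast genes 1 fell, Slc9b2 (log2 -0.56, adjusted p = 0.00806 in edgeR), a sodium-proton exchanger of osteoclasts.

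Of 27 general lysosome genes tested, 11 were called lower in KO E2 than in WT E2 and 0 higher. Over all tested genes 4.2% were called lower and 7.27% higher. The median log2 difference of the lysosome genes was -0.26, against -0.27 for the member pump subunits. Among the lysosome genes with the smallest p values were Ctsa (log2 -0.57), Gusb (-0.52) and Hexa (-0.53), which encode lysosomal hydrolases of most cells. For estradiol in KO tissue the median was -0.095 for the lysosome genes and -0.003 for the pump subunits. There 22 of 27 lysosome genes and 6 of 11 tested pump subunits were below 0, where 49.5% of all tested genes were above 0.

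Of 11 macrophage markers, which cover other cells of the monocyte lineage, 9 were below 0 and 2 above 0 on the log2 scale in KO E2 against WT E2. Their median log2 difference there was -0.61, next to -0.55 for the osteoclast products. Their summed CPM was 382, 431 and 504 in KO E2, 432, 438 and 459 in KO Plb, 676, 642 and 826 in WT E2 and 497 and 512 in WT Plb libraries. None of the 11 was at 0 in any library. Of them 7 were called lower in KO E2 against WT E2 (Cx3cr1, Cd68, C1qa, C1qb, C1qc, Cd14 and Adgre1), as were 4.2% of all tested genes. Cd163, a scavenger receptor, was higher without overlap but was not called, at 3.57, 7.36 and 3.89 CPM in KO E2 and 3.47, 3.08 and 1.61 CPM in WT E2 libraries (log2 difference 0.85, SE 0.34, adjusted p = 0.125), and Mertk stood at 0.18 (95% interval -0.04 to 0.39). With estradiol in WT 1 of the 11 was called higher (Cx3cr1), as were 0.654% of all tested genes. There 10 were above 0 and 1 below, with a median of 0.57, next to 0.42 for the osteoclast products. WT E2 libraries lay above both WT Plb libraries for 9 and below them for 1, against 13.2% and 13.8% of all tested genes. Cd68 is also made by osteoclasts. The part of macrophages in the members' values was not tested.

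Neutrophil markers moved the other way, and neutrophils also express Mmp9. The summed CPM of the 14 markers was 1305, 4719 and 1633 in KO E2, 1.61, 763 and 170.3 in KO Plb, 8.68, 44.4 and 10.6 in WT E2 and 223 and 502 in WT Plb libraries. Of these 10 were called higher in KO E2 against WT E2, as were 7.27% of all tested genes. Mmp9 stood at -0.32 on the log2 scale there. Megakaryocytes also make Itgb3, and their 8 markers summed to 14.5 to 99.5 CPM in KO E2 and 17.4 to 19.9 CPM in WT E2 libraries. Of the 8, 4 were called higher, against the same 7.27% of all tested genes. Of the neutrophil markers 0 were at 0 in KO E2 and 0 to 4 in WT E2 libraries, and of the megakaryocyte markers 0 to 2 and 3 to 4. The part of either cell in these 2 genes was not tested.

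Osteoclasts remove the matrix of mineralizing cartilage and bone cells. In KO E2 against WT E2 most cartilage markers were below 0, while bone cell markers lay on both sides of 0. Of 10 fibrocartilage markers 3 were called lower there, as were 4.2% of all tested genes. They were Col10a1 (hypertrophic collagen, log2 -1.55), Ihh (-1.17) and Matn1 (-2.70). Of the 10, 9 were below 0, and their median log2 difference was -0.50, next to -0.55 for the osteoclast products. In KO Plb against WT Plb 0 were called but 9 were also below 0, where 49.3% of all tested genes were above 0. The median was -0.59 in that comparison, next to -0.08 for the osteoclast products. Of 10 osteoblast and osteocyte markers 3 were called lower in KO E2 against WT E2, Sost (log2 -1.31), Ibsp (-1.12) and Alpl (-0.46), against the same 4.2%. The other genes of that list did not pass, 6 of the 10 were above 0, and the median was 0.09, with Bglap (osteocalcin) at 0.38 (95% interval 0.07 to 0.70) and Bglap2 at 0.30 (95% interval 0.03 to 0.58). With estradiol in WT, Sost (log2 1.32) and Ibsp (0.68) were called higher with both WT Plb samples in the fit, as were 0.654% of all tested genes. There 5 of the 10 were below 0 and the median was -0.10. Bglap stood at -0.42 (95% interval -0.77 to -0.07) and Bglap2 at -0.41 (95% interval -0.72 to -0.10) there, both lower in all WT E2 than in both WT Plb libraries and neither called.

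Skeletal muscle markers, a sign of tissue beside the cartilage, summed to 9.2 to 12.1 CPM in KO E2 and 65.6 to 577 CPM in KO Plb libraries. Their sums were 26.1 to 204 CPM in WT E2 libraries, 34 CPM in WT Plb sample 1 and 965 CPM in WT Plb sample 2. In KO E2 against KO Plb 8 of 9 tested muscle markers were lower without overlap, against 12.4% of all tested genes. These 8 had an unadjusted p under 0.05 in edgeR, where 6.8% of all tested genes were lower at that level. None of the 8 passed adjustment. The part of the dissected tissue's make-up in the members' values was not tested.

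**Figure D4:**
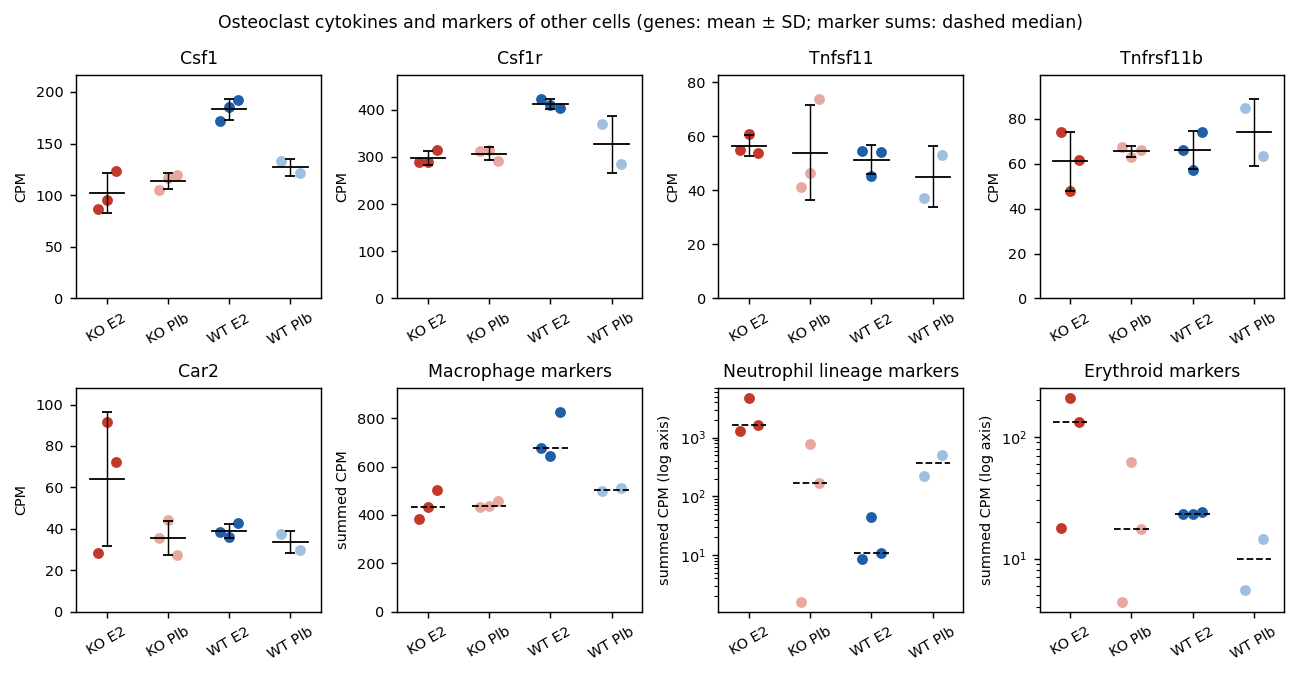
CPM of Csf1, Csf1r, Tnfsf11, Tnfrsf11b and Car2, and summed CPM of macrophage, neutrophil and erythroid markers (y axes, the last 2 on a log axis) in the 4 groups (x axes); points are libraries, with mean ± SD for genes and a dashed median for marker sums. Csf1, Csf1r and the macrophage sum are highest in the 3 WT E2 libraries, and the neutrophil sum is highest in the 3 KO E2 libraries.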

How the data were processed

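The submitters' processing notes name TopHat, bcl2fastq 2.17 and the mm9 build. For the counting program, its annotation and its use of strand, nothing is given in the sources used here. Raw counts per gene symbol stand in the deposited table for 11 libraries, with 0 unmapped columns. The authors' deposited comparison tables hold, per the file headers, a mean of normalized counts (a signal value), log2 fold changes with standard errors, a test score and p-values; only values named as the authors' come from them.

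In R 4.3.3, edgeR 4.0.16 kept genes by filterByExpr (a count of at least 10, a total of at least 15), scaled by TMM and fitted the 4 groups over all 11 libraries with a robust quasi-likelihood model (7 residual degrees of freedom). Adjusted p-values are Benjamini-Hochberg values from edgeR's quasi-likelihood test over 14531 genes, called under 0.05, in 5 comparisons; SE is the absolute log2 difference over the square root of F. Intervals are at 95%. The fit was tested on simulated data. Members, lists and tests were chosen with earlier results of these data known. Values of every sample are given for called members and 10 set ones, and called pathway genes (up to 4 of a list) and 5 set ones are named. The values of 1 such gene are not reported here. Marker lists of other cells and ratios to Ctsk serve as descriptions. Spi1 and Adgre1 stand in the table under older symbols. A level of 3 counts equals 0.118 to 0.204 CPM, and floors cover counting error only. In GENCODE M21 exons of Acp5, Atp6v0b, Atp6v1h, Ostm1, Plekhm1 and Slc4a2 overlap a gene on the other strand, whose reads cannot be told apart without strand. No libraries of a group agreed within sampling noise (chi-square per degree of freedom 9.92 or more).

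Replicate numbers were checked as pairs by correlating deviations from group means. For KO E2 and KO Plb the 3 pairs gave r of 0.183 to 0.42, and pairings of unlike numbers -0.345 to 0.0638. For KO E2 and WT E2 the 3 pairs gave 0.0473 to 0.0941, and pairings of unlike numbers -0.0692 to 0.000188. The labels do not say that the numbers pair samples, and these values do not settle it. With the replicate number as a block, 16 members were called lower in KO E2 against WT E2. Alternatives were RLE size factors, DESeq2 1.42.0, no filter, the replicate block, an adjusted p under 0.1, only the groups compared, and each library left out.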

Additional observations from a re-analysis of the deposited data

How the results depend on the processing

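Of the 17 members called lower in KO E2 against WT E2, 7 kept their call in all 17 alternatives (Acp5, Ocstamp, Dcstamp, Oscar, Atp6v0d2, Tnfrsf11a and Atp6v0b). The count lay between 13 and 22 in the 6 other settings and between 8 and 19 without single libraries, where 0 or 1 were called higher (Car2, without KO E2 sample 1). All genes called there were 2512 at an adjusted p under 0.1 and 867 to 1850 without single libraries. For estradiol in WT the count of higher members was 6 in DESeq2, 5 at 0.1, 0 in the fit of only the groups compared and 0 to 4 without single libraries; all genes called were 656 in DESeq2, 448 at 0.1 and 113 to 285 without single libraries. For estradiol in KO all genes called were 952 in DESeq2, 714 at 0.1, 226 in the fit of only the groups compared and 105 to 505 without single libraries, where 0 or 1 members were called higher. The interaction was called for 2 members in DESeq2, 1 without the filter, 1 with the replicate block, 2 at 0.1 and 0 to 3 without single libraries; all genes called were 561 in DESeq2, 301 with the replicate block, 395 at 0.1 and 68 to 270 without single libraries. Under placebo all genes called between KO and WT were 40 in DESeq2, 17 with the replicate block and 1 to 50 without single libraries, with 0 members in any. The replicate block left the estradiol count in KO at 0 members, with 629 genes called in all. Pairing by number in WT gave r of -0.188 and -0.176 over 2 pairs and under placebo 0.119 and 0.186 over 2 pairs, and 8 of 11 libraries correlated best with a library of their own number. The causes of these changes were not tested, except that leaving out a library or a group lowers the number of samples. The 2 WT Plb samples limit both comparisons that use them.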
